A study of Mus musculus with 10 samples.

Results

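The 10 genes described here encode ion channels opened by extracellular ATP or by protons. They are 6 of the ATP-gated P2X receptor genes (P2rx2, P2rx3, P2rx4, P2rx5, P2rx6 and P2rx7) and the acid-sensing channel genes Asic1, Asic2, Asic3 and Asic4. They were taken by name from 32531 gene rows of every library, and all 10 names were found. RNA bound to tagged ribosomes was sequenced from the medial habenula, a small paired nucleus of the epithalamus, of adult mice carrying the Chat-TRAP transgene of line DW167. In this BAC transgenic line Chat regulatory sequence places an EGFP-tagged ribosomal protein, Rpl10a, in cholinergic neurons, and antibodies to EGFP pull down the tagged polysomes with their RNA (translating ribosome affinity purification, TRAP). There were 5 libraries of the left and 5 of the right medial habenula, with the same transgene on both sides and no treatment named. All 10 were pull-downs, with no unpurified input among the libraries used, and how far a gene is enriched over whole tissue was therefore not measured. The age beyond adult, the sex and the number of animals behind a library are not given in the labels, so p-values measure the spread between these libraries, which may be partly technical.

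P2X receptors are trimeric cation channels that open within milliseconds of ATP release, and fast synaptic currents carried by ATP have been recorded in the medial habenula of the rat. The subunits differ in how fast they desensitise and in the cells that use them, and some assemble poorly without a partner. Acid-sensing channels belong to the family of epithelial sodium channels. They pass sodium, and some also calcium, when the fluid outside the cell turns acid, as it does for a moment in the synaptic cleft when vesicles empty.

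Gene reads summed to between 42488448 and 67942836 per library. The 10 markers of habenular neurons chosen to check the tissue (led by Nwd2 and Lrrc55) had reads in every library and summed to 6526 to 10525 CPM in left libraries and 5034 to 10673 CPM in right libraries, where CPM is reads per 1000000 gene reads of a library. Replicates 1 and 5 of both sides stood apart from the other 6 libraries. Their 12 astrocyte markers (led by Slc1a2 and Aldoc) summed to 105 to 112 CPM, against 402 to 1599 CPM in the other 6, and markers of oligodendrocytes (led by Mbp) ran from 103 CPM in left replicate 5 to 1696 CPM in right replicate 3. The 8 thalamic neuron markers (led by Cplx1 and Rora) divided the libraries in the same way, with sums of 2307 to 2438 CPM in replicates 1 and 5 and 3024 to 4091 CPM in the other 6. Cplx1 made up most of that sum and was lowest in right replicates 4 and 3 (1222 and 1272 CPM), whereas Rora ran from 137 to 168 CPM in replicates 1 and 5, against 371 to 841 CPM in the other 6. The 12 endothelial and pericyte markers (led by Pecam1 and Flt1) summed to 5.02 to 7.85 CPM in replicates 1 and 5 and 20.9 to 49.9 CPM in the other 6. Pecam1 itself overlapped, at 3.58 to 4.59 CPM in replicates 1 and 5 and 3.58 to 6.34 CPM in the other 6. Flt1 ran from 0.0541 to 0.655 CPM in replicates 1 and 5 and from 3.13 to 9.57 CPM in the other 6. Between the sides, 0 genes of these lists or of those of oligodendrocyte precursors and microglia were called. Replicates 1 and 5 of a side were also nearer to each other than any other pair of that side. Over genes with 100 to 500 reads in the pair, chi-square per gene was 2.16 between left replicates 1 and 5 and 1.32 between right replicates 1 and 5, against 6.72 to 57.1 between the other pairs. Both pairs differed by more than counting noise, which does not show whether they are separate samples. They were kept as separate libraries, as labelled, and summed into 1 in an alternative fit.

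The acid-sensing channels were led by Asic1 and Asic2. Asic1, the subunit that gives most central neurons their proton-gated current, stood at 92.2, 134, 103, 110.4 and 98.7 CPM in left replicates 1 to 5 and at 108, 126, 86.6, 73.2 and 106 CPM in right replicates 1 to 5. The sides overlapped, with the highest value in left replicate 2 and the lowest in right replicate 4. Asic2, a subunit that joins Asic1 in mixed channels and tunes their acid response, stood at 42.0, 46.0, 39.0, 44.1 and 42.0 CPM in left libraries and at 45.9, 47.9, 40.9, 33.4 and 47.0 CPM in right libraries. Right replicate 4, the library with the fewest reads, was lowest for both genes. Asic2 varied least of the 9 members that passed the filter on low counts, 1.44-fold over the 10 libraries, and Asic1 varied 1.83-fold.

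Asic4 and Asic3 had fewer reads, and also lower levels per kb, than Asic1 and Asic2. Asic4, which gives no proton-gated current when expressed by itself, stood at 13.7, 12.2, 8.31, 5.30 and 14.04 CPM in left replicates 1 to 5 and at 16.6, 13.5, 8.36, 9.08 and 16.7 CPM in right replicates 1 to 5. On each side replicates 1 and 5 were the highest libraries, and the lowest of all was left replicate 4. Asic3, best known from sensory neurons of the body, had 22, 17, 18, 8 and 17 reads in left libraries and 15, 16, 18, 19 and 14 reads in right libraries. That is 0.122 to 0.371 CPM in left libraries and 0.206 to 0.447 CPM in right libraries, and the sides overlapped. Asic5, the remaining gene of the acid-sensing family, had 0 reads in every library.

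**Figure D1:**
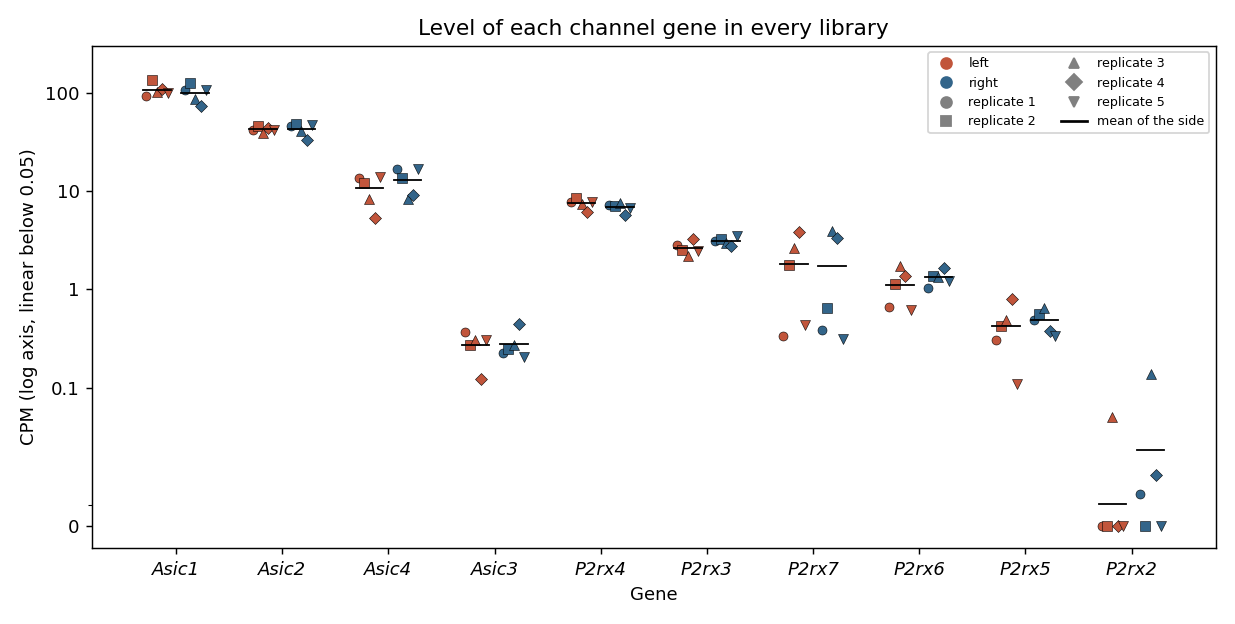
CPM of each gene in every library on a log axis that turns linear below 0.05, left (red) beside right (blue), with a symbol for each replicate number and a line at the mean of the side. Asic1 and Asic2 lie at the top in all 10 libraries, P2rx2 lies at or near 0, and P2rx7 spreads over a 12.7-fold range.

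Among the P2X genes, P2rx4 and P2rx3 each kept a steady level over the 10 libraries. P2rx4, a channel of neurons and microglia that passes much calcium and also sits in lysosomes, stood at 7.79, 8.44, 7.45, 6.17 and 7.81 CPM in left libraries and at 7.28, 7.09, 7.56, 5.74 and 6.70 CPM in right libraries. Its lowest values on each side were those of replicate 4, and it varied 1.47-fold. P2rx3, the fast desensitising subunit known from pain-sensing neurons, stood at 2.80, 2.50, 2.20, 3.26 and 2.44 CPM in left libraries and at 3.13, 3.27, 2.94, 2.78 and 3.50 CPM in right libraries. Of the left libraries 1, replicate 4, lay within the upper part of the right range, and the other 4 lay near or below the lowest right value.

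P2rx2, the slowly desensitising subunit that pairs with P2rx3 in sensory neurons, was at or near the limit of detection. It had 0, 0, 3, 0 and 0 reads in left replicates 1 to 5 and 1, 0, 9, 1 and 0 reads in right replicates 1 to 5, or 14 reads in all. A library with 0 reads allows up to 3 reads, which is 0.0442 to 0.0541 CPM in the 6 libraries concerned. These limits, like the exact Poisson interval of 0.0623 to 0.259 CPM for the 9 reads of right replicate 3, cover counting error only. P2rx2 did not pass the filter on low counts, and an exact two-sided permutation test of its CPM over 252 assignments of libraries to sides gave p = 0.563 (0.0102 ± 0.0227 CPM in left libraries, 0.0357 ± 0.0586 CPM in right libraries with TMM-scaled library sizes, SD, n = 5 each). Without ties the smallest p of such a test is 0.00794. Here 6 libraries tie at 0 reads, so the smallest p that can be reached is larger, and the test could show little. P2rx1, the P2X gene outside the 10 members, had 2 reads in 1 library, left replicate 4, and 0 in the others.

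P2rx6 and P2rx5 stood near and below 1 CPM. P2rx6, which forms few channels by itself and assembles with P2rx2 or P2rx4, stood at 0.658, 1.12, 1.72, 1.37 and 0.613 CPM in left libraries and at 1.03, 1.38, 1.35, 1.65 and 1.22 CPM in right libraries. P2rx5, a subunit that desensitises little, had 18, 27, 29, 52 and 6 reads in left libraries and 33, 37, 43, 16 and 23 reads in right libraries. In CPM, left replicate 5 was the lowest library for both genes, and left replicates 1 and 5 were the lowest pair (0.303 and 0.108 CPM for P2rx5). Of the exonic bases of P2rx6, 13.9% are shared in the GENCODE M21 annotation of GRCm38 (mm10) with Slc7a4 on the other strand, a gene at 12.5 to 22.8 CPM. Whether strand was used in counting is not known here, so reads of this stretch cannot be assigned with certainty. Asic4 shares 18.1% of its exonic bases with Gm37264 on the other strand, which was not among the gene rows counted. P2rx3 shares 1.83% with Ssrp1 on the other strand, a gene at 61.7 to 78.3 CPM. P2rx7 shares 1.99% with Mir8115, a microRNA gene on the same strand, so strand cannot tell reads of that stretch apart.

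P2rx7 was the member that differed most between libraries. It is the P2X receptor that needs the most ATP to open, and it is best known from microglia, where its opening triggers the release of interleukins. It stood at 0.337, 1.77, 2.64, 3.87 and 0.433 CPM in left replicates 1 to 5 and at 0.387, 0.645, 3.92, 3.34 and 0.309 CPM in right replicates 1 to 5. Each side held both low and high libraries, so the range of 12.7-fold lay within the sides. P2rx7 lies on the plus strand of chromosome 5 of GRCm38, from 122643911 to 122691432, and P2rx4 follows it on the same strand from 122707544 to 122729738, a gap of 16.1 kb. These neighbours are relatives of one family and behaved differently across the libraries, so the sequence around the start of each is shown. Both windows run from 250 bases before to 50 after a RefSeq start (GRCm38.p6, plus strand), 5′ to 3′, P2rx7 at chr5:122643677-122643976 and P2rx4 at chr5:122707294-122707593, with GC boxes in capitals.
P2rx7: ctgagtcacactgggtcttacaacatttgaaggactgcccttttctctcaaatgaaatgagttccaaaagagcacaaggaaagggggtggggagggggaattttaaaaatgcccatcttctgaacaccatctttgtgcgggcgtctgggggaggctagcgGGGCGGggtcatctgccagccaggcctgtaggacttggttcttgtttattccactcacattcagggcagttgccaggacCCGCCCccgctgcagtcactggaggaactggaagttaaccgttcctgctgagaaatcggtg
P2rx4: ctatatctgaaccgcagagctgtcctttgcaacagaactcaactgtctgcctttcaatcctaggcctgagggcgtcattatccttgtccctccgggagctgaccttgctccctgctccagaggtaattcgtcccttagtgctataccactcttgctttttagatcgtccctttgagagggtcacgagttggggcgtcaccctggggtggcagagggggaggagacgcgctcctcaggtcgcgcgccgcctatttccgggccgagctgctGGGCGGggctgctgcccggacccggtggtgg
The RefSeq table held windows for 6 of the 10 members. Both strands were searched for the GC box, spelled GGGCGG. They were searched in the same way for TATAAA, for the octamer ATGCAAAT, for the PU.1 sequence GAGGAAGT and for the cyclic AMP element TGACGTCA. The P2rx7 window held 2 GC boxes and the P2rx4 window 1, and 35.7% of 32851 windows of this length held at least 1. Neither held any of the other 4, which were found in 13.6%, 1.74%, 3.20% and 1.79% of windows. CpG dinucleotides numbered 8 in the P2rx7 window and 18 in the P2rx4 window, against a median of 7 over all windows. A second RefSeq window of P2rx7, at chr5:122650133-122650432, held 1 PU.1 sequence and 0 GC boxes. Matches of this kind describe the letters of the windows and were not tested against the counts.

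The difference between the sides was then measured for all members in one fit over all genes. Of the 9 members that passed the filter, 0 were called in edgeR's quasi-likelihood test at a Benjamini-Hochberg adjusted p under 0.05, where 0 of 16250 genes (0%) were called. At an unadjusted p under 0.05 there were 0 of the 9 members and 90 genes (0.554%). That share lies far below the threshold of 0.05 itself, so 0 calls in this test do not show that the sides are alike. It was 1.83% with the replicate number as a block and 3.37% with the mean level of glial and endothelial markers as a covariate. In these 2 edgeR fits 1 member (Asic4) and 0 members had an unadjusted p under 0.05, and 0 genes were called. DESeq2 also called 0 members (of 10, since it was run without the filter). CPM of the sides overlapped for all 9, where 0.215% of all genes had sides that did not overlap. The fitted log2 fold change, left minus right, was above 0 for 3 of the 9 members (Asic1, P2rx4 and P2rx7), and for 46.3% of all genes. Its median over the 9 was -0.05 and its median size 0.11, beside -0.01 and 0.08 over all 16250 genes.

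The intervals give the range of differences that these libraries allow. Asic2 averaged 42.6 ± 2.62 CPM in left libraries and 43.0 ± 6.03 CPM in right libraries (SD, n = 5 each), and its log2 fold change was -0.03 with a 95% interval of -0.26 to 0.19. Asic1 averaged 108 ± 16.1 CPM in left libraries and 99.9 ± 20.6 CPM in right libraries, with a log2 fold change of 0.09 (-0.23 to 0.41). P2rx4 averaged 7.53 ± 0.843 CPM in left libraries and 6.87 ± 0.706 CPM in right libraries, with a log2 fold change of 0.11 (-0.17 to 0.39). For these 3 genes the interval reaches at most a 1.33-fold higher level in left libraries. P2rx7, at 1.81 ± 1.499 CPM in left libraries and 1.72 ± 1.76 CPM in right libraries, had a log2 fold change of 0.02 with an interval of -1.95 to 2.001, which reaches a 4.002-fold higher level in left libraries. Asic3 (-0.05, -0.93 to 0.84), P2rx5 (-0.22, -1.24 to 0.81) and P2rx6 (-0.30, -1.01 to 0.42) had intervals of intermediate width.

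P2rx3 and Asic4 had lower means in left libraries without passing the test. P2rx3 averaged 2.64 ± 0.408 CPM in left libraries and 3.12 ± 0.282 CPM in right libraries (log2 fold change -0.27, 95% interval -0.61 to 0.08, edgeR unadjusted p = 0.113). Lanes 1, 2, 4 and 5 of the sequencer each held 1 left and 1 right library, and the left library was the higher for P2rx3 in 1 of these 4 lanes. Asic4 averaged 10.7 ± 3.78 CPM in left libraries and 12.8 ± 3.98 CPM in right libraries (-0.28, -0.94 to 0.39, edgeR unadjusted p = 0.375) and the left library was the higher in 0 of the 4 lanes. In the 2 libraries of replicate 1, which ran in different lanes, Asic4 was also lower in the left library. The share of all genes with such lane counts was not measured, so the counts describe these libraries only.

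The count of called members changed when replicates 1 and 5 were fitted alone. With replicates 1 and 5 of each side summed into 1 library, 0 of 9 members were called, and with replicates 2 to 4 alone 0 of 9. With replicates 1 and 5 alone, edgeR called 2 members, P2rx6 (log2 fold change -0.82, adjusted p = 0.0332) and Asic4 (-0.26, adjusted p = 0.0394), both lower in left libraries, where 12.8% of 15569 genes were called and 7.06% were called lower in left libraries. In replicates 2 to 4 alone the same log2 fold changes were -0.07 for P2rx6 and -0.28 for Asic4, neither called. The left and the right pair of replicates 1 and 5 were each closer than other pairs (the chi-square over genes with 100 to 500 reads), and the labels do not say whether they came from separate animals. In limma-voom with sample weights, Asic4 (-0.61), P2rx3 (-0.37) and P2rx7 (1.71) had an unadjusted p under 0.05, as did 14.8% of all genes, and each had an adjusted p of 0.282.

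**Figure D2:**
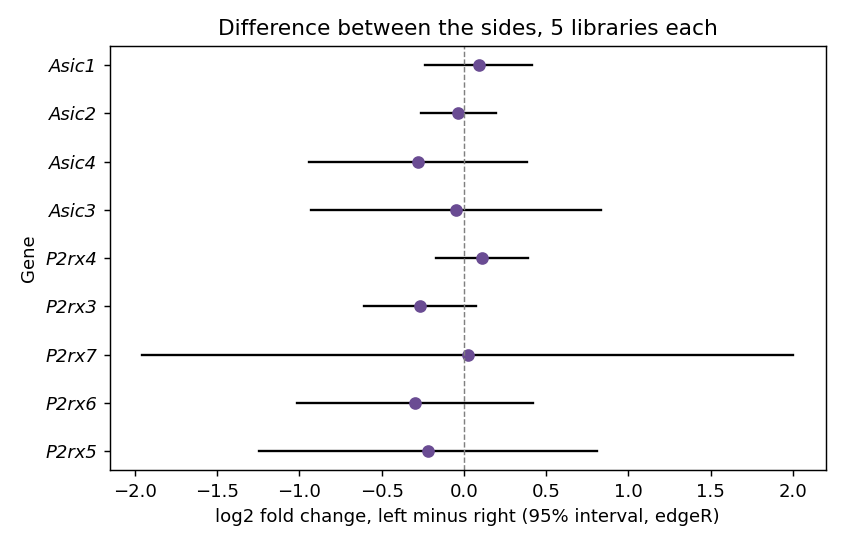
Fitted log2 fold change, left minus right, of the 9 tested genes with its 95% interval from edgeR (5 libraries a side). Every interval includes 0, and the widest belongs to P2rx7 and the narrowest to Asic2.

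P2rx7 and Asic4 set the same libraries apart, in opposite directions. P2rx7 was lower in replicates 1 and 5 of both sides (0.309 to 0.433 CPM) than in all other libraries (0.645 to 3.92 CPM), a pattern that 24.3% of all tested genes shared. The 8 markers listed under oligodendrocyte precursors all had reads in every library. They were led by Bcas1 and Olig1, which are not limited to precursors. The 8 summed to 12.4, 91.2, 139.9, 171 and 12.9 CPM in left libraries and to 12.8, 52.0, 195, 157 and 12.5 CPM in right libraries. The 6 libraries highest in P2rx7 were also the highest 6 in the sums of 6 of the 7 marker lists, all but that of habenular neurons. Their order differed between lists: counted from the highest, the first 8 libraries matched the order of P2rx7 for oligodendrocyte precursors, 6 for oligodendrocytes, 2 for endothelium and pericytes, and 0 for astrocytes, microglia and thalamic neurons. The 12 microglia markers (Csf1r among them), of which 11 or 12 had reads in a library, summed to 8.80, 24.3, 29.2, 41.7 and 8.52 CPM in left libraries and to 7.72, 17.0, 40.2, 32.4 and 6.98 CPM in right libraries. Of the microglia markers Aif1 was at 0 in left replicate 1 and right replicates 1 and 5, and Fcrls in left replicate 5. Over the libraries the summed markers ranged 16.5-fold for oligodendrocytes, 15.7-fold for their precursors, 15.2-fold for astrocytes, 9.95-fold for endothelium and pericytes, 5.97-fold for microglia and 1.77-fold for thalamic neurons, beside the 12.7-fold range of P2rx7. The part of these cells in the level of P2rx7 was not tested. In these pull-downs, fewer cells of a type, less RNA per cell and less untagged RNA carried through the purification cannot be told apart.

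Asic4 ran the other way. It was higher in replicates 1 and 5 of both sides (13.7 to 16.7 CPM) than in all other libraries (5.30 to 13.5 CPM), as were 22.9% of all tested genes. The ranges nearly touched, with 13.7 CPM in left replicate 1 just above 13.5 CPM in right replicate 2. The summed habenular neuron markers were highest in the same libraries, at 10525 and 10218 CPM in left replicates 1 and 5 and 10673 and 10545 CPM in right replicates 1 and 5, against 5034 to 8771 CPM in the others. Whether their share of the RNA sets the level of Asic4 was not tested. The other 7 tested members overlapped between these libraries and the rest, among them P2rx4 (6.70 to 7.81 CPM in replicates 1 and 5, 5.74 to 8.44 CPM in the others) and Asic2 (42.0 to 47.0 and 33.4 to 47.9 CPM).

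**Figure D3:**
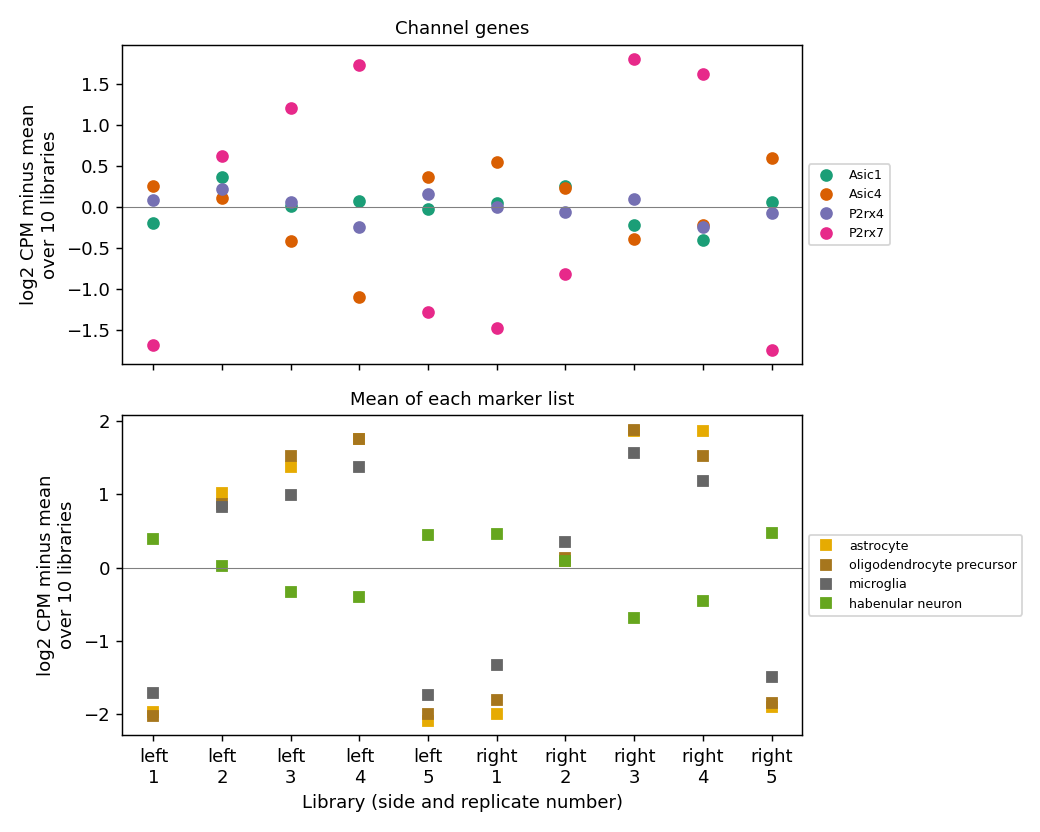
Centred log2 CPM of Asic1, Asic4, P2rx4 and P2rx7 (top) and of the mean of 4 marker lists (bottom) in each of the 10 libraries, left before right. P2rx7 is low where the glial lists are low, in replicates 1 and 5 of both sides, while Asic4 and the habenular neuron list are at their highest there, and Asic1 stays between -0.40 and 0.37 and P2rx4 between -0.24 and 0.22.

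Levels can be compared between genes only per length. Per kb of exons in GENCODE M21, Asic1 stood at 18.1 ± 3.12, Asic2 at 10.04 ± 1.03 and Asic4 at 4.32 ± 1.40 CPM per kb (SD over 10 libraries). Each of these stood above the next in 10 of 10 libraries, with ranges that did not overlap. P2rx3 and P2rx4 followed, both at 1.03 CPM per kb, and did not differ beyond their spread, with P2rx3 above P2rx4 in 5 of the 10. P2rx4 stood above P2rx6 in 10 of 10 libraries, again with ranges that did not overlap. P2rx6 (0.303 ± 0.0926), P2rx7 (0.296 ± 0.258), P2rx5 (0.190 ± 0.0801) and Asic3 (0.114 ± 0.0370 CPM per kb) each overlapped with the next in the order, and P2rx2 came last at 0.00876 ± 0.0168 CPM per kb. Among 14437 tested genes with a length, Asic1 stood above 83.7%, Asic2 above 72.1%, Asic4 above 53.4%, P2rx3 and P2rx4 above 27.9% and Asic3 above 6.23%.

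The choice of length moved P2rx4 most. Its exons span 7.03 kb, the longest of the 10, for a coding sequence of 388 residues, while P2rx3 has 2.79 kb for 397 residues. Per kb of the longest coding sequence P2rx4 stood at 6.19 ± 0.697 and P2rx3 at 2.42 ± 0.351 CPM per kb, a ratio of 1.94 to 3.47 in the 10 libraries, where the ratio per kb of exons was 0.751 to 1.35. Asic4 stood 2.21 to 6.41 times as high as P2rx4 per kb of exons, but 0.619 to 1.79 times per kb of coding sequence, so their order turned in part of the libraries. Asic1 stood 1.57 to 2.16 times as high as Asic2 per kb of exons and 2.13 to 2.93 times per kb of coding sequence. Of the summed level of the 4 Asic genes per kb of exons, Asic1 held 57.1 ± 4.31% in left libraries and 53.8 ± 2.27% in right libraries. Of the summed level of the 6 P2X genes per kb of exons, P2rx4 held 39.7 ± 9.02% in left libraries and 33.6 ± 4.18% in right libraries, and P2rx3 34.5 ± 5.63% in left libraries and 38.6 ± 6.39% in right libraries. Per kb of coding sequence P2rx4 held 44.3% to 69.9% and P2rx3 15.9% to 28.9% over the 10 libraries, so P2rx4 was the higher in each. The share of P2rx7 in the sum per kb of exons ran from 1.91% in right replicate 5 to 19.2% in left replicate 4.

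**Figure D4:**
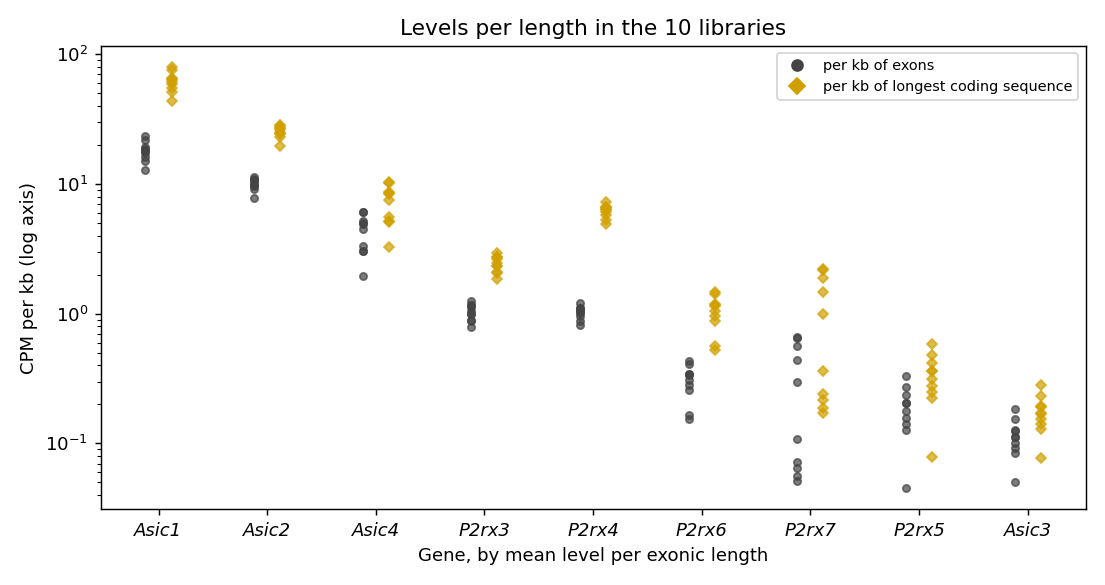
CPM per kb of exons (grey circles) and per kb of the longest coding sequence (yellow diamonds) of 9 genes on a log axis, with 1 point for each of the 10 libraries. Asic1, Asic2 and Asic4 are separated per kb of exons, and P2rx4 lies beside P2rx3 by exons and above it by coding sequence. P2rx2, at 0 in 6 libraries, is left out.

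Other genes that sense, release or remove ATP were measured as lists. Of 12 P2Y and adenosine receptors, which act through G proteins, 7 were tested and 0 were called in either direction (5 with a log2 fold change above 0, median 0.10, beside -0.01 over all genes). Adora1, the inhibitory adenosine receptor, averaged 34.2 ± 30.4 CPM in left libraries and 31.0 ± 30.0 CPM in right libraries. Its extremes were both left libraries, 3.61 CPM in replicate 5 and 72.0 CPM in replicate 4, and like P2rx7 it was low in replicates 1 and 5 of both sides. P2ry1 averaged 1.66 ± 1.33 CPM in left libraries and 2.52 ± 2.41 CPM in right libraries. Of 7 measured genes of ATP release, 4 were tested and 0 called (3 above 0, median 0.04). Lrrc8a, a subunit of volume-regulated anion channels, averaged 128 ± 28.3 CPM in left libraries and 123 ± 16.5 CPM in right libraries, and Panx2, a pannexin, 36.6 ± 12.6 CPM in left libraries and 34.9 ± 9.55 CPM in right libraries. Slc17a9, the vesicular nucleotide transporter, stood at 0.0169 to 0.0676 CPM in left libraries and 0.0294 to 0.227 CPM in right libraries, a gene chosen after its values were seen. Of 14 genes of nucleotide breakdown and adenosine handling, 11 were tested and 0 called (8 above 0, median 0.06). Enpp2, whose part in nucleotide breakdown was not measured here, averaged 64.6 ± 61.2 CPM in left libraries and 56.9 ± 59.9 CPM in right libraries. It ran from 6.90 to 151 CPM and, like Adora1, was low in replicates 1 and 5 of both sides. Adk, adenosine kinase, averaged 16.9 ± 2.04 CPM in left libraries and 16.3 ± 2.66 CPM in right libraries.

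Partners and companions of the acid-sensing channels gave no call either. Of 10 genes whose proteins bind or regulate these channels or their relatives, 10 were tested and 0 called. The log2 fold change was above 0 for 1 of them, with a median of -0.13, beside 46.3% and -0.01 over all genes. Among them 0 had an unadjusted p under 0.05 in edgeR. Nedd4l, a ubiquitin ligase of epithelial sodium channels, averaged 604 ± 94.7 CPM in left libraries and 571 ± 32.2 CPM in right libraries, and Dlg4, the postsynaptic scaffold, 313 ± 31.4 CPM in left libraries and 325 ± 38.2 CPM in right libraries. Of 9 other acid-sensitive receptors and channels, 6 were tested and 0 called (4 above 0, median 0.04). Kcnk1, a potassium leak channel, averaged 60.6 ± 5.94 CPM in left libraries and 58.3 ± 7.19 CPM in right libraries, and Gpr4, a proton-sensing receptor, 54.9 ± 4.99 CPM in left libraries and 55.0 ± 12.2 CPM in right libraries. Of 15 genes of acid and base transport, 15 were tested and 0 called (7 above 0, median -0.0018). Car10, a protein of the carbonic anhydrase family, averaged 422 ± 95.03 CPM in left libraries and 374 ± 101 CPM in right libraries, and Slc4a8, a bicarbonate transporter, 178 ± 85.5 CPM in left libraries and 169 ± 67.7 CPM in right libraries. Of 5 further relatives of the 2 channel families, 1 was tested and 0 called. It was Scnn1a, an epithelial sodium channel subunit, at 1.298 ± 0.708 CPM in left libraries and 1.44 ± 0.639 CPM in right libraries.

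The genes with the most similar pattern over the 10 libraries were found for each member that averaged 1 CPM or more. Likeness was the root mean square difference of centred log2 CPM, taken over 8963 tested genes that averaged 10 CPM or more. Cnih3, Fam189b and Tgfb1i1 were nearest to Asic1 (0.05, 0.07 and 0.07, beside a spread of Asic1 itself of 0.21). Tvp23a, L3mbtl2 and Rassf5 were nearest to Asic2 (0.06 each, beside 0.12), and Mrps21, Ormdl3 and Naa38 to Asic4 (0.10, 0.11 and 0.11, beside 0.50). For P2rx7 they were Lrp1b, Gabrb1 and Abca1 (0.26, 0.27 and 0.27, beside 1.45). For P2rx4 they were C030039L03Rik, Stim1 and Smyd2 (0.09 each, beside 0.15), for P2rx3 Rpp40, Fam63a and Zfp940 (0.14, 0.14 and 0.15, beside 0.20), and for P2rx6 Jade3, Tob2 and Acvr1b (0.22, 0.22 and 0.24, beside 0.47). A small distance to P2rx4, P2rx3 or Asic2 says little, since these members varied little.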

How the data were processed

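For each library the authors deposited whole-number counts of reads by gene, not normalized, made with STAR 2.0.0e and HTSeq on the build mm10, per the submitters' processing notes. Not given in the sources used here are the annotation, strand setting and filters of that step. Of 32537 rows per file, 6 name no gene and were left out. Reads outside genes were 13.6% to 18.9% and reads in overlapping genes 2.25% to 2.81% of the reads in these 2 classes and in genes together.

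Groups came from the sample titles. CPM are over gene rows. The test was edgeR 4.0.16 in R 4.3.3 (TMM, filterByExpr grouped by side at min.count 10, robust quasi-likelihood fit, side as the only term), left minus right, fitted to all genes. The threshold was a Benjamini-Hochberg adjusted p under 0.05. Log2 CPM has a prior count of 2. Intervals are 95%. Alternatives were median-of-ratios factors, no filter, DESeq2 1.42.0, limma 3.58.1 (voom with sample weights), a replicate block, a glial covariate, a threshold of 0.1, and leaving out or summing libraries. That covariate is the mean log2 CPM of 44 tested astrocyte, oligodendrocyte, microglia and endothelial markers. Replicates 2 to 4 alone were added after seeing the data. Lengths and positions are from GENCODE M21 (GRCm38, the build of mm10), which matched 23155 of 32531 gene names. Figures were drawn with matplotlib 3.10.9.

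All members are named. Of each list the 2 tested genes with the highest mean CPM are named, except 2 marker genes that are not reported here, and for each member of at least 1 CPM the 3 genes nearest in pattern. The members and lists were chosen with earlier results of these data known.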

Additional observations from a re-analysis of the deposited data

Results flagged for a closer look

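In 20 groups of 5 libraries (10 genes, 2 sides) the highest and the lowest library were checked for a gap to its nearest neighbour above 0.71 of the range of the group, which chance exceeds in about 1 group in 20, and 3 libraries were found. P2rx2 stood at 0.0507 CPM (3 reads) in left replicate 3, with 0 reads in the other left libraries. Where the 4 other libraries are at 0, any read gives a gap of the whole range, and the rate of 1 in 20 does not apply to such counts. P2rx2 stood at 0.136 CPM (9 reads) in right replicate 3, where the other right libraries had 0 or 1 read. Asic3 stood at 0.447 CPM (19 reads) in right replicate 4, the library with the fewest reads, while the other right libraries lay between 0.206 and 0.273 CPM.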

How the results depend on the processing

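No member and no gene was called under any alternative except replicates 1 and 5 alone, where 1992 genes and 2 members passed the threshold. At an adjusted p under 0.1 the fit of all libraries also called 0 genes. Leaving out 1 library at a time gave 0 called genes and 0 called members in each of the 10 fits. Of 180 recomputed log2 fold changes of the 9 tested members, 161 kept direction and call, whatever their size, and 17 changed sign. None of the 17 passed the threshold with all libraries or under the alternative, and the cause was not tested. Leaving out 1 library moved P2rx5 between -0.56 and 0.0270, P2rx7 between -0.45 and 0.60, Asic2 between -0.10 and 0.00527 and Asic3 between -0.16 and 0.21. With replicates 2 to 4 alone P2rx5 was at 0.0748 and Asic2 at 0.0603. With both libraries of replicate 1 left out Asic2 was at 0.0040, and with replicates 1 and 5 summed at 0.0086. With replicates 1 and 5 alone Asic1 was at -0.16 and Asic3 at 0.66. In limma-voom Asic3 was at 0.22. There P2rx7 was at 1.71, against 0.02 in the main fit, and Asic4 at -0.61, against -0.28. Both kept their sign and count among the 161. P2rx3, P2rx4, P2rx6 and Asic4 kept their sign in all 20 alternatives each. The labels do not say whether equal replicate numbers mark paired samples, and the main fit left the samples unpaired. Deviations from the side means correlated at 0.860, 0.0962, 0.806, 0.715 and 0.873 between the same-numbered libraries of replicates 1 to 5. Between differently numbered libraries they ran from -0.873 (left 5, right 3) to 0.863 (left 5, right 1). With the replicate number as a block 0 genes and 0 members were called. With that block Asic4 was at -0.31 (95% interval -0.59 to -0.02, edgeR unadjusted p = 0.0369), where 297 of 16250 genes (1.83%) had an unadjusted p under 0.05. Depth limits P2rx2, Asic3 and P2rx5, whose highest libraries held 9, 22 and 52 reads.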
